A study of Mus musculus with 6 samples.

Results

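The genes described here encode integrins, laminins and the proteins that link them, by which epithelial cells hold to their basement membrane. They were measured in luminal epithelial cells of the mouse mammary gland, the cells that line the ducts and make milk, from mice labelled as knockouts of Ocln and from control mice. Ocln encodes occludin, a membrane protein of tight junctions. Members are the rows of the authors' deposited table whose symbol is that of an integrin alpha or beta subunit, a laminin chain, a nidogen, agrin (Agrn), perlecan (Hspg2) or dystroglycan (Dag1). There were 40 such genes among 16701 listed genes, of which 25 encode integrin subunits, 10 laminin chains and 5 linker proteins. GENCODE vM21 holds 44 symbols of this pattern, and the other 4 (Itga11, Itgad, Itgbl1 and Lamc3) were not analysed here. The table compared 3 libraries of Ocln knockout (Ocln-/-) luminal epithelial cells with 3 libraries of WT control luminal epithelial cells, all from the mammary gland of mice at 7 weeks of age. How the Ocln allele was made, the strain background, how the luminal cells were isolated and whether mice were pooled were not stated in the labels. The p-values therefore measure how far these libraries spread, and some of that spread may be technical.

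Each integrin is a dimer of 1 alpha and 1 beta subunit that spans the membrane. Outside, it binds a matrix protein or, as leukocyte integrins do, a protein on another cell. Inside, it binds the actin or keratin skeleton. Laminins are trimers of an alpha, a beta and a gamma chain that polymerise into the sheet of the basement membrane. Nidogens and perlecan tie that sheet to the network of type IV collagen, while agrin and laminin also bind dystroglycan, a second, non-integrin matrix receptor of the cell surface. In the mammary gland, laminin signals through beta 1 integrin and dystroglycan are known to be needed for the polarity and milk protein synthesis of luminal cells. Several members are also surface markers used to sort mammary cells, among them Itga6 (CD49f), Itgb1 (CD29), Itga2 (CD49b) and Itgb3 (CD61), of which Itga2 and Itgb3 mark luminal progenitor cells in mice.

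The authors' deposited table gives, for each gene, a mean abundance over the 6 libraries in normalized counts, a log2 fold change of knockout over control with its standard error (SE), and DESeq2 p-values. Values per library were not used here, so levels by genotype and overlap between libraries are not shown, and their sequencing depth is unknown. For Ocln, the targeted gene, the authors' deposited table has a log2 fold change of -1.15 ± 0.16 (SE, 3 against 3 libraries, DESeq2 adjusted p = 4.36e-09), or 44.9 percent of control. Ocln transcript was thus still counted in the knockout libraries. Since the allele is not described, whether those reads come from the altered part of the gene cannot be told, and occludin protein was not measured here. The 9 luminal markers were all listed, with a summed mean abundance of 330959 normalized counts, led by Krt18 at 84084 and Krt8 at 61719. Markers of other cells summed to lower values, 2323 for 10 basal or myoepithelial markers, 4736 for 9 endothelial, 1469 for 7 fibroblast and 1581 for 8 myeloid markers. The 4 pericyte markers summed to 7235, of which Notch3 made 7131. For the 3 Schwann cell markers the sum was 5008, of which Sox10 made 4866. Dcn, the decorin gene, was the fibroblast marker that passed (-1.36 ± 0.35 in the authors' deposited table, DESeq2 adjusted p = 0.0134), and the median of the 7 was 0.19. Median log2 fold changes were 0.03 for 4 pericyte and 0.25 for 3 Schwann cell markers, while the 1 listed adipocyte marker was at -0.14 and the 1 listed platelet marker at 0.45. Adipoq, Plin1, Lep, Gp9 and Gp1bb were not among the listed genes. In bulk RNA, fewer cells of a type and less RNA per cell cannot be told apart.

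Itgb8 was the member that rose in the knockout, and 0 members fell. It encodes the beta 8 subunit, which pairs with the alpha v subunit and is known for binding and activating latent TGF-beta. Its GRCm38 position is chromosome 12, bases 119158022 to 119238802, read on the minus strand. Itgb8 had a mean abundance of 1331 normalized counts, and the authors' deposited table puts its log2 fold change at 0.88 ± 0.25 (SE, DESeq2 adjusted p = 0.0481, unadjusted p = 0.000507). Knockout cells thus had 184.6 percent of control (95 percent interval 130.7 to 260.8 percent). Over all listed genes, 0.808 percent were called higher and 0.275 percent lower at an adjusted p under 0.05, beside 2.5 percent of the members called higher, a share made by 1 gene of 40. That call was near its threshold. Itgb8 did not pass when all scores were scaled down for their overall inflation (adjusted p = 0.13), nor when the trend of the score with transcript length was removed (adjusted p = 0.141). The longest GENCODE transcript of Itgb8 has 8403 bases, and over all genes the median Wald score was 0.455 in the longest of 20 length bins against -0.282 in the shortest.

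At an unadjusted p under 0.05, which is no call after correction, 4 members were higher and 2 lower by DESeq2. The shares over all listed genes were 5.23 percent higher and 3.83 percent lower, against 10 percent and 5 percent of the members. These 6 genes were Itgb8, Itga2, Itgb2 and Hspg2 on the higher side and Lamb1 and Itga7 on the lower side. The median log2 fold change of the 40 members was 0.13, against -0.01 over all listed genes, with 24 values positive (60 percent, against 48.8 percent of all listed genes) and 16 negative. Leaving aside the 8 subunits of leukocyte integrins, the median of the other 32 members was 0.01, with 16 positive and 16 negative. With the trend of the score with transcript length removed, the median of the 40 members was 0.02, and an unadjusted p under 0.05 was then reached by 3 members on the higher side and 4 on the lower.

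**Figure D1:**
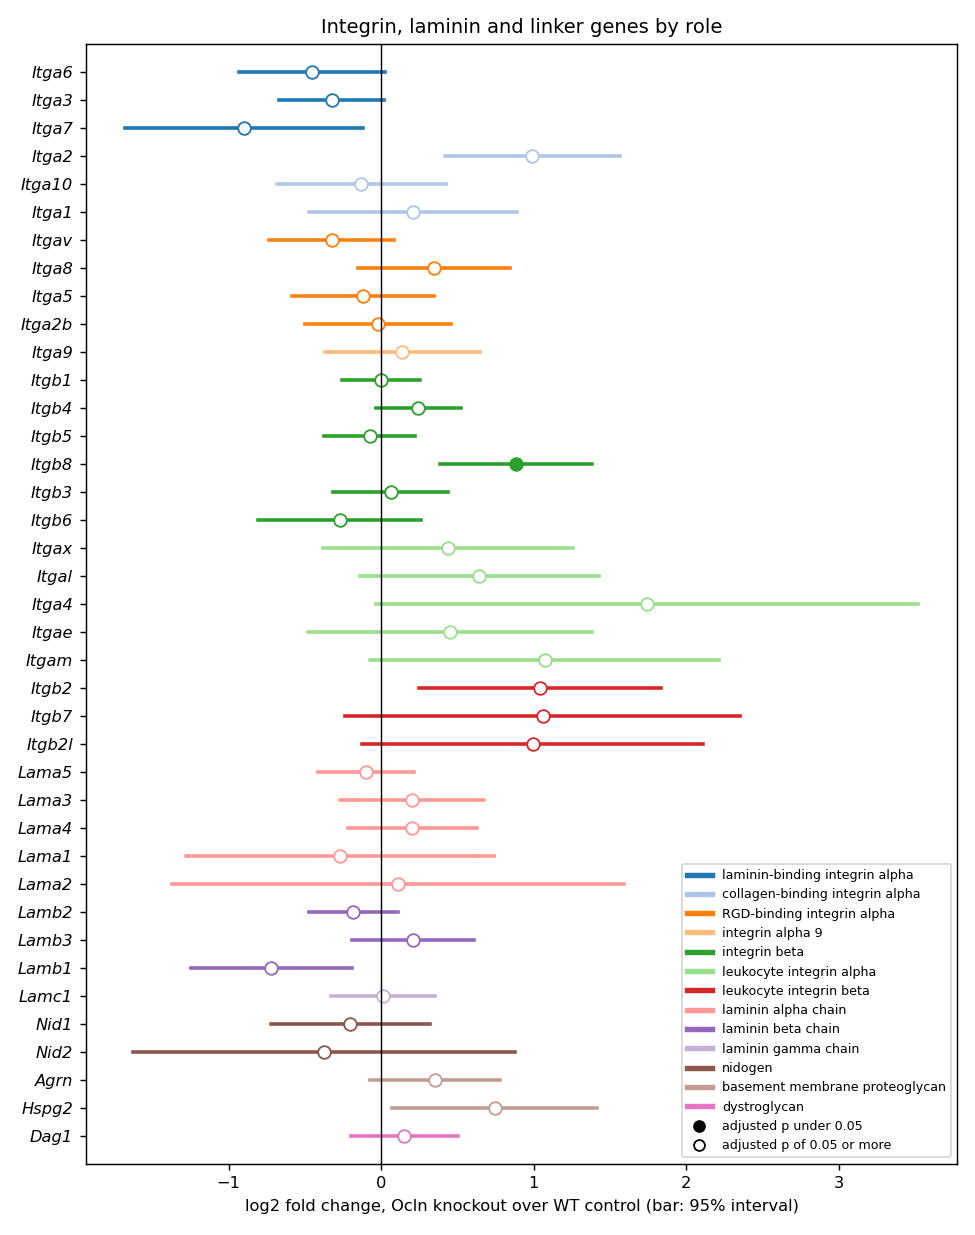
Log2 fold change of Ocln knockout over WT control for 39 of the 40 members (points), with 95% intervals (bars), grouped by role and ordered within a role by mean abundance. The filled point, Itgb8, has an adjusted p under 0.05, and 33 of the 39 intervals drawn hold 0.

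The precision of these values sets what could be seen. To pass, a gene needed a Wald score of about 3.46 in size, which for the members meant a log2 fold change of at least 0.45 (Itgb1), 0.89 at the median and 3.13 (Itga4). The 95 percent intervals of 24 members lay within 1 of 0 on the log2 scale, and those of 8 within 0.5. Members were not equally precise at a given level. In the second highest of 5 equal bins of mean abundance, the 7 members had a median SE of 0.24, against 0.18 for all genes of that bin, while in the highest bin the 12 members had a median SE of 0.17, the same as all genes there.

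**Figure D2:**
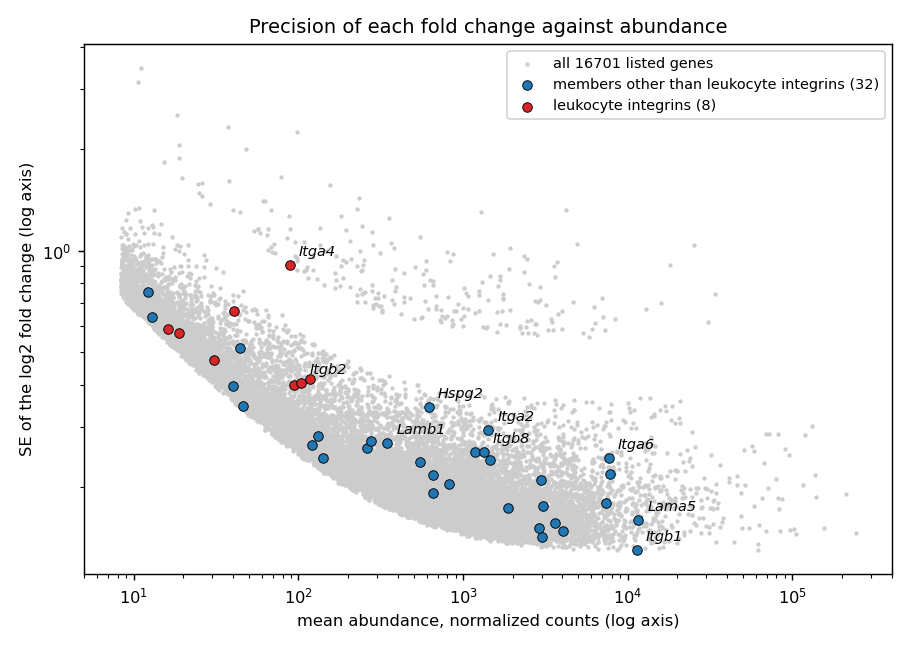
SE of the log2 fold change (vertical, log axis) against the mean abundance in normalized counts (horizontal, log axis) for all 16701 listed genes (grey), the 32 members other than leukocyte integrins (blue) and the 8 leukocyte integrin subunits (red). Itgb1 has an SE of 0.13, and Itga4 lies apart from the main cloud at 0.91.

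Among the alpha subunits that bind laminin, all 3 had a negative log2 fold change and 0 passed. Itga6 encodes the alpha 6 subunit, which pairs with beta 1 or, in hemidesmosomes, with beta 4. At a mean abundance of 7663 normalized counts it stood at -0.45 ± 0.24 in the authors' deposited table (SE, DESeq2 adjusted p = 0.596), or 73.1 percent of control with an interval of 52.5 to 101.8 percent. Itga3, whose alpha 3 subunit binds the laminins of epithelial basement membranes together with beta 1, was close to it at -0.32 ± 0.18 in the authors' deposited table (adjusted p = 0.602, mean abundance 3050.3). Itga7, known as the laminin receptor subunit of muscle, was at -0.90 ± 0.40 (adjusted p = 0.434) in the authors' deposited table, with a mean abundance of only 39.9 normalized counts. The interval of Itga7 ran from 31.3 to 92.1 percent of control, and those of Itga6 and Itga3 included 100 percent. Basal and myoepithelial cells are known to express Itga6 and Itga3 too. Of the 10 markers of those cells, 1 passed, Oxtr, the oxytocin receptor gene (-1.55 ± 0.38, DESeq2 adjusted p = 0.00733), and 7 of 10 were negative with a median of -0.15 in the authors' deposited table. At an unadjusted p under 0.05, DESeq2 had 1 on each side, Oxtr and the keratin gene Krt17. In the authors' deposited table Krt17 was at 0.86 ± 0.42 (adjusted p = 0.514), and Tagln (0.67 ± 0.42) and Myh11 (0.05 ± 0.26) were positive too. The part of basal and myoepithelial cells in the values of Itga6, Itga3 and Itga7 was not tested.

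Collagen receptors were led by Itga2, which encodes the alpha 2 subunit that joins beta 1 in a receptor for fibrillar collagen. The authors' deposited table puts its log2 fold change at 0.99 ± 0.29, with a mean abundance of 1426 normalized counts, and it did not pass (SE, DESeq2 adjusted p = 0.0609, unadjusted p = 0.00074). This corresponds to 198.9 percent of control, with an interval of 133.4 to 296.5 percent that takes no account of how many genes were tested. Itga2 and Itgb8 thus stand on either side of the threshold with intervals that overlap widely. Itga2 occupies bases 114833081 to 114932100 of chromosome 13 (GRCm38, minus strand). Itga1, whose alpha 1 subunit prefers type IV collagen, lies 21 kb from Itga2 on chromosome 13, with both genes on the minus strand. Its value was 0.21 ± 0.35 at a mean abundance of 46.1 (adjusted p = 0.949), and that of Itga10, an alpha subunit known from cartilage, was -0.13 ± 0.28 at 131.7 (adjusted p = 0.962), both from the authors' deposited table. On that chromosome Ocln lies 14.3 Mb from Itga2, and Nid1 is the remaining member there, 87 Mb from Ocln. The luminal markers Elf5 (0.51 ± 0.17, DESeq2 adjusted p = 0.157) and Kit (0.36 ± 0.20, adjusted p = 0.618), both known from luminal progenitors, were positive beside Itga2 in the authors' deposited table but did not pass. Itgb3, the other progenitor marker among the members, stood at 0.06 ± 0.19 (adjusted p = 0.971) in the authors' deposited table. Over all 9 luminal markers 3 were positive and 6 negative, the median log2 fold change was -0.10 and 0 passed by DESeq2. At an unadjusted p under 0.05 there was 1 on each side, Elf5 and the keratin gene Krt19 (-0.36 ± 0.18, DESeq2 adjusted p = 0.502), and the hormone receptor genes Prlr (-0.40 ± 0.26), Esr1 (-0.69 ± 0.58) and Pgr (-0.30 ± 0.30) were negative too in the authors' deposited table. Whether the make-up of the luminal preparation had a part in the value of Itga2 was not tested.

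The sequence before the transcription start is shown for Itga2 and Lamb1, which had the lowest p-values on the higher and the lower side after Itgb8, to let their promoters be read beside their values. Both come from RefSeq on GRCm38.p6, 5′ to 3′ on the strand of the gene and without bases that GENCODE vM21 places in an exon, and capitals mark letters of the motifs searched. The Itga2 window is chr13:114932101-114932350 on the minus strand, 250 bases that end at the start site, and the Lamb1 window is chr12:31265043-31265233 on the plus strand, 191 bases that end 60 bases before it.
Itga2: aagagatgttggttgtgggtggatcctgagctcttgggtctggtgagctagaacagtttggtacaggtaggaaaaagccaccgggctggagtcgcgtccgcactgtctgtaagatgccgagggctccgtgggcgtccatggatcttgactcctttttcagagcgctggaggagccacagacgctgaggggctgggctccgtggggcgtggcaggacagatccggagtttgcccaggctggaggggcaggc
Lamb1: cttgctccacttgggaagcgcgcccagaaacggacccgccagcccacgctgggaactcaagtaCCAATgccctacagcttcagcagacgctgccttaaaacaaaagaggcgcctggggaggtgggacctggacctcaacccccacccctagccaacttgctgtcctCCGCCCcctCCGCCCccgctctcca
The motif searched as the GC box was GGGCGG. The CCAAT box was searched by the letters in its name. TATAAA stood for the TATA box, and TGANTCA for the AP-1 site. Both strands were searched, and no match overlapped another. Lamb1 held 2 GC boxes, on the opposite strand, and 1 CCAAT box, while the Itga2 window held 0 of the 4 motifs. In windows of the Lamb1 length and place, 23.1 percent of 32851 promoters held a GC box and 26.9 percent a CCAAT box. In windows like that of Itga2, 32.7 percent held a GC box, 33.8 percent a CCAAT box, 12.4 percent a TATA box and 6.75 percent the AP-1 site. Guanine and cytosine made up 60.8 percent of the Itga2 window and 63.9 percent of the Lamb1 window, against medians of 52.4 and 51.3 percent over all promoters.

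Partners of alpha v, the subunit that binds the RGD motif of fibronectin, vitronectin and latent TGF-beta, are set beside Itgb8 here, since a beta subunit reaches the surface with its alpha partner. Itgav itself was at -0.32 ± 0.21 in the authors' deposited table (SE, DESeq2 adjusted p = 0.713) at a mean abundance of 2966 normalized counts. The beta subunits that pair with it besides beta 8 had log2 fold changes of -0.00 ± 0.13 for Itgb1, 0.06 ± 0.19 for Itgb3, -0.08 ± 0.15 for Itgb5 and -0.27 ± 0.27 for Itgb6 in the authors' deposited table, with adjusted p-values of 0.873 or more. Their 95 percent intervals all held 0, and that of Itgb1, from -0.26 to 0.25, was the narrowest of the 40 members. The difference between Itgb8 and these partners was not tested, since the table gives no covariance between genes. Per kilobase of transcript, the mean abundance of Itgb8 was 158.4 normalized counts, below Itgb1 (2973), Itgb5 (876) and Itgb4 (488) and above Itgb3 (113.2) and Itgb6 (57.4).

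The remaining RGD-binding alpha subunits were Itga8 at 0.35 ± 0.25, Itga5, the fibronectin receptor subunit, at -0.12 ± 0.24, and Itga2b, known from platelets, at -0.02 ± 0.24 in the authors' deposited table. The adjusted p-values of the trio ran from 0.773 for Itga8 to 0.992 for Itga2b. Exons of Itga8 share 372 bases with E030013I19Rik on the opposite strand, and whether the counting used strand was not stated in the labels. Itga9, whose subunit binds tenascin and other matrix proteins, was at 0.14 ± 0.26 in the authors' deposited table (adjusted p = 0.953). Itgb4, the beta subunit of hemidesmosomes, had a mean abundance of 3028 normalized counts and in the authors' deposited table a log2 fold change of 0.24 ± 0.14 (DESeq2 adjusted p = 0.647). Its interval of 97.7 to 143.6 percent of control lay mostly above 100 percent, and that of its partner Itga6 mostly below it.

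All 8 subunits of leukocyte integrins had positive log2 fold changes, at low levels and with wide errors, and 0 passed by DESeq2. These subunits serve adhesion and migration of white blood cells. Itgb2, the common beta subunit of the leukocyte integrins, was at 1.04 ± 0.41 in the authors' deposited table (SE, DESeq2 adjusted p = 0.294, unadjusted p = 0.0103) at a mean abundance of 103.5 normalized counts. It was the one member the authors called Up in the deposited table. All genes they called had an unadjusted p under 0.05, and the smallest log2 fold change among them was about 1.01 in size, which Itgb8 did not reach. Whether every gene with such values was called was not checked. Over all listed genes the authors called 1.8 percent Up and 0.988 percent Down.

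The alpha partners of beta 2 were Itgal at 0.64 ± 0.40 (mean abundance 93.9), Itgam at 1.07 ± 0.58 (16.2) and Itgax at 0.44 ± 0.42 (117.4) in the authors' deposited table. Itga4 and Itgb7, which pair in the receptor that guides lymphocytes to mucosal tissue, were at 1.74 ± 0.91 (mean abundance 88.5) and 1.06 ± 0.66 (40.6) in the authors' deposited table. The interval of Itga4 ran from 97.8 to 1146 percent of control, and its SE of 0.91 stood against a median of 0.32 for genes in the same bin of mean abundance. Itgae, which with beta 7 binds E-cadherin, was at 0.45 ± 0.48 (mean abundance 30.9), and Itgb2l at 0.99 ± 0.57 (18.7), per the authors' deposited table. The adjusted p-values of the 8 genes lay between 0.294 for Itgb2 and 0.88 for Itgae.

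Most listed markers of white blood cells had positive log2 fold changes in the same comparison, but 0 passed by DESeq2. Of 8 myeloid markers 7 were positive, with a median log2 fold change of 0.39, and 0 passed by DESeq2, 1 of them, Lyz2, having an unadjusted p under 0.05 (0.97 ± 0.29, adjusted p = 0.0665 in the authors' deposited table). Ptprc, which encodes CD45 and is shared by all white blood cells, stood at 1.19 ± 0.76 in the authors' deposited table (DESeq2 adjusted p = 0.705). Its mean abundance was 280.9 normalized counts. Of the lymphocyte markers, Cd79b (1.28 ± 1.01), Ms4a1 (1.54 ± 1.60), Trbc2 (0.22 ± 0.47) and Ccl5 (1.12 ± 0.65) were listed in the authors' deposited table. Their DESeq2 adjusted p-values ran from 0.643 for Ccl5 to 0.959 for Trbc2. Cd79a, Cd3e, Cd3d, Cd3g and Nkg7 were not among the listed genes. The 8 leukocyte subunits had a summed mean abundance of 510 normalized counts, against 37467 for all 25 integrin subunits. The part of white blood cells in these values was not tested.

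**Figure D3:**
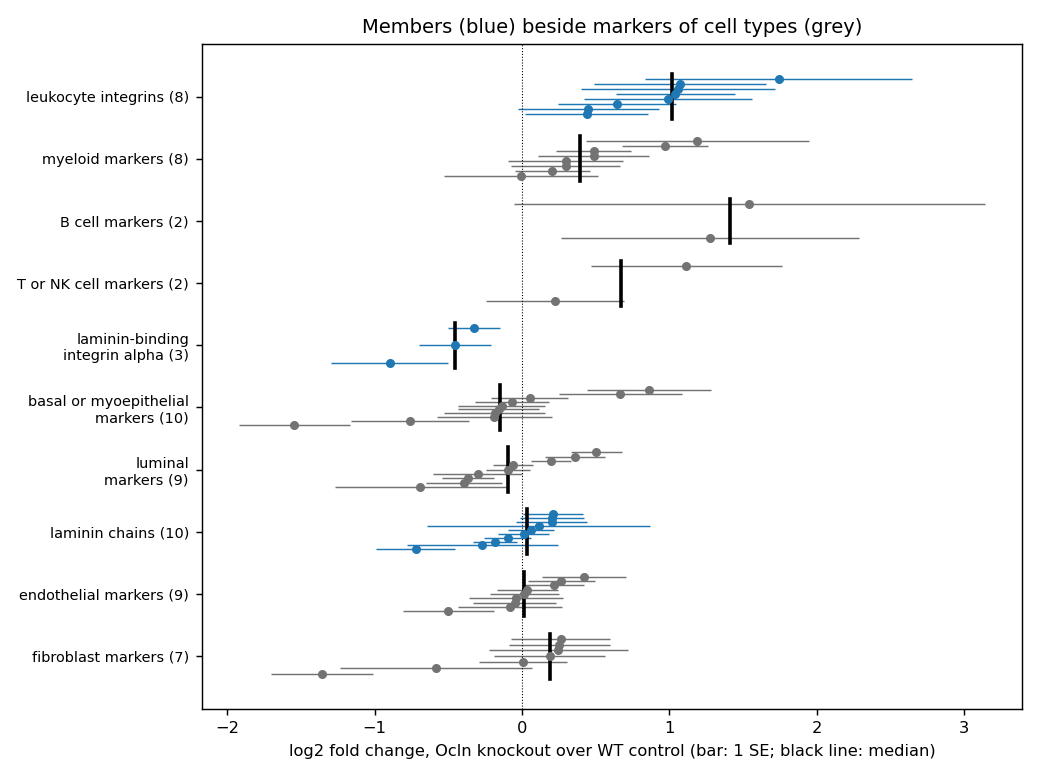
Log2 fold changes of Ocln knockout over WT control for 3 groups of members (blue) beside 7 marker lists (grey), with 1 SE as bars and the median of each group as a black line. The leukocyte integrin subunits have a median of 1.02 and the myeloid markers of 0.39, while the laminin chains, at 0.04, and the endothelial markers, at 0.02, lie near 0.

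Of the 10 laminin chains 0 passed, and 1 had an unadjusted p under 0.05. That was Lamb1, the beta 1 chain of the widespread laminins, for which the authors' deposited table puts the log2 fold change at -0.72 ± 0.27 (SE, DESeq2 adjusted p = 0.246, unadjusted p = 0.0073) at a mean abundance of 346.9 normalized counts. This is 60.7 percent of control, with an interval of 42.1 to 87.4 percent. Lamb1 lies on chromosome 12 from 31265234 to 31329644 (GRCm38, plus strand). The beta 2 chain, which takes the same place in the trimer, is encoded by Lamb2 and stood at -0.18 ± 0.15 (adjusted p = 0.813) at a mean abundance of 4040 in the authors' deposited table. Per kilobase of transcript, the mean abundance of Lamb1 was 60.0 normalized counts and that of Lamb2 was 718, so Lamb2 was the more abundant transcript of the pair.

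The alpha and gamma chains that form trimers with them had 95 percent intervals that held 0. Lama5, the chain with the highest mean abundance at 11578 normalized counts, was at -0.10 ± 0.16 in the authors' deposited table (adjusted p = 0.946), and Lamc1, the common gamma chain, at 0.01 ± 0.17 (adjusted p = 0.994). The intervals were 75.2 to 116.1 percent of control for Lama5 and 79.6 to 127.6 percent for Lamc1. Lama4, an alpha chain known from blood vessels and fat, was at 0.20 ± 0.22 (mean abundance 652.5) in the authors' deposited table, beside endothelial markers of which 0 of 9 passed and whose median was 0.02. Lama1 (-0.27 ± 0.51, mean abundance 44.3) and Lama2, the laminin alpha chain of muscle (0.11 ± 0.76, mean abundance 12.1), were too scarce in the authors' deposited table for a fold of 2 to be seen.

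Lama3 and Lamb3 encode an alpha and a beta chain found in laminins of epithelial basement membranes. Lama3 was at 0.20 ± 0.24 and Lamb3 at 0.21 ± 0.20 in the authors' deposited table, with DESeq2 adjusted p-values of 0.907 and 0.864. Their mean abundance per kilobase of transcript was 137.4 normalized counts for Lama3 and 167.8 for Lamb3.

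Linkers of the basement membrane held 1 gene with an unadjusted p under 0.05, Hspg2. It encodes perlecan, a large heparan sulfate proteoglycan, and was at 0.74 ± 0.34 in the authors' deposited table (SE, DESeq2 adjusted p = 0.475, unadjusted p = 0.0306) at a mean abundance of 618.6 normalized counts. The interval ran from 105 to 267.3 percent of control. Its longest transcript, 14187 bases, is the longest of the members, and with the trend of length removed its adjusted p was 0.673. Agrn, the other proteoglycan, was at 0.35 ± 0.22 (adjusted p = 0.689) at a mean abundance of 7846, and Dag1, the receptor that binds both, at 0.15 ± 0.18 (adjusted p = 0.907) at 7362, in the authors' deposited table. Nid1 (-0.20 ± 0.27, mean abundance 120.6) and Nid2 (-0.37 ± 0.64, mean abundance 12.8) were negative in the authors' deposited table but did not pass. Exons of Nid2 share 437 bases with Rtraf on the opposite strand.

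**Figure D4:**
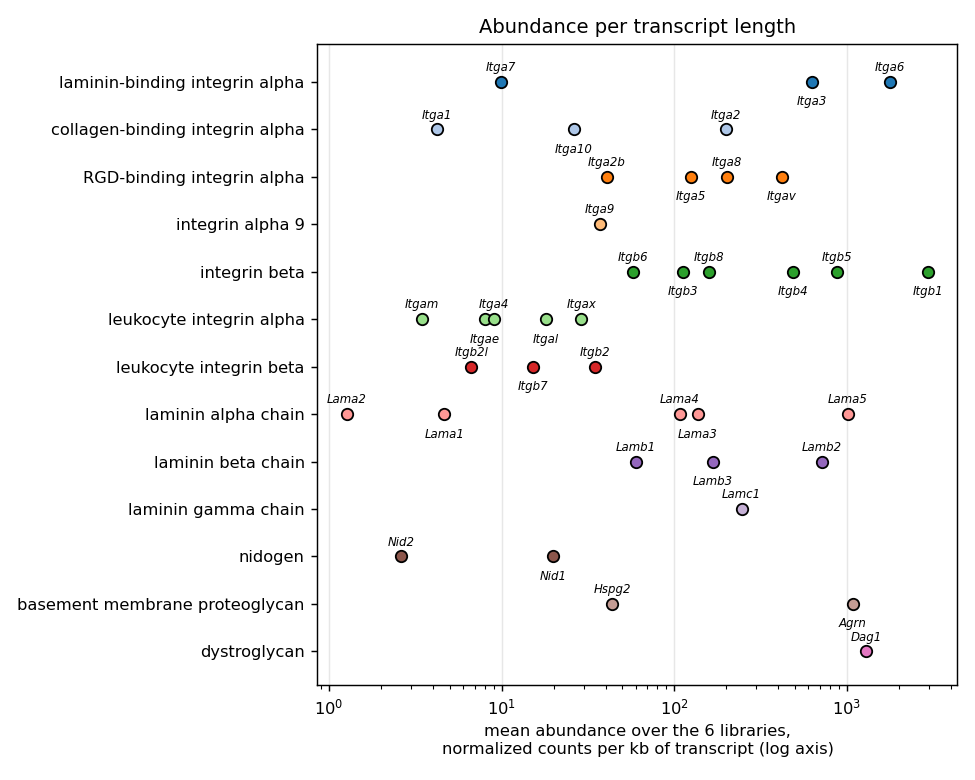
Mean level of 39 of the 40 members over the 6 libraries in normalized counts per kilobase of the longest GENCODE transcript (horizontal, log axis), by role (rows). Itgb1 is highest at 2973, followed by Itga6 at 1778, Dag1 at 1300.3, Agrn at 1080.4 and Lama5 at 1016.7, and each leukocyte subunit lies below 35.

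Per kilobase of transcript, the members spanned from 1.26 normalized counts for Lama2 to 2973 for Itgb1. The highest alpha subunits were Itga6 (1778), Itga3 (628) and Itgav (420), and the highest laminin chains Lama5 (1017) and Lamb2 (718). In each role the most abundant gene had a log2 fold change within 0.5 of 0 except Itga2 among the collagen-binding alpha subunits and Itgb2 among the leukocyte beta subunits. Of the 16 members with a mean abundance of at least 1000 normalized counts, 1 passed, 9 were positive and 7 negative, and their median log2 fold change was 0.04.

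Genes that work with the members were taken from 7 lists written for this purpose. Of 27 genes of talins, kindlins and focal adhesions, which couple integrins to actin, 0 passed. At an unadjusted p under 0.05, 5.23 percent of all listed genes were higher and 3.83 percent lower by DESeq2. Of the 27 genes, 3 were higher and 0 lower at that threshold. These were the tensin gene Tns3 (0.89 ± 0.32, DESeq2 adjusted p = 0.202), the kinase gene Fyn (0.68 ± 0.26, adjusted p = 0.294) and the zyxin gene Zyx (0.34 ± 0.17, adjusted p = 0.54) in the authors' deposited table. The 27 genes had 0.07 as their median log2 fold change. Of 7 genes of hemidesmosomes and tetraspanins, 0 passed by DESeq2 and 0 reached an unadjusted p under 0.05, 6 were negative and the median was -0.13.

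Around dystroglycan, 0 of 10 listed genes of the dystrophin complex passed by DESeq2, with a median log2 fold change of -0.11. Of 12 enzymes that build the laminin-binding sugar of dystroglycan, 0 passed by DESeq2 and the median was -0.02. Among them Pomgnt1 was at -0.35 ± 0.17 in the authors' deposited table (DESeq2 adjusted p = 0.512), with an unadjusted p under 0.05.

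Type IV and other basement membrane collagens were negative in 8 of 8 listed genes, against 8556 of all 16701 listed genes. Their median was -0.36, and 1 of the 8 fell, Col4a1. Col4a1 and its partner chain Col4a2 share a promoter region and form 1 trimer, and they stood at -1.04 ± 0.29 (DESeq2 adjusted p = 0.0329) and -0.68 ± 0.32 (adjusted p = 0.486) in the authors' deposited table. With the scores scaled down for inflation, Col4a1 did not pass (adjusted p = 0.0953), while with the length trend removed it did (adjusted p = 0.00907). Col4a5 (-0.05 ± 0.14) and Col4a6 (-0.02 ± 0.16), which had the highest mean abundances of this list at 5031 and 4339 normalized counts, were close to 0 in the authors' deposited table. Among 13 other basement membrane genes 0 passed by DESeq2 and 0 reached an unadjusted p under 0.05, 9 were negative and the median was -0.30.

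Of 11 other listed ligands of integrins 1 rose, Mfge8, which carries an RGD motif for alpha v integrins (0.95 ± 0.26, DESeq2 adjusted p = 0.0249 in the authors' deposited table). Mfge8 did not pass with the scores scaled down for inflation (adjusted p = 0.0766), while with the length trend removed it did (adjusted p = 0.0155). At an unadjusted p under 0.05 the ligands of leukocyte integrins Icam1 (0.81 ± 0.34, adjusted p = 0.388) and Vcam1 (0.61 ± 0.29, adjusted p = 0.49) were higher and Npnt, the gene of the alpha 8 ligand nephronectin, was lower (-0.69 ± 0.31, adjusted p = 0.452), per the authors' deposited table. Beside the partners Npnt and Itga8 stood values of opposite sign, neither of which passed. The median of the 11 ligands was 0.19.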

How the data were processed

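Polyadenylated RNA of 3 Ocln knockout and 3 WT control libraries was extracted with a Magen kit and made into libraries by GENEWIZ, per the labels' protocols. DESeq2 (no version) and the build mm10 are named in the submitters' processing notes, which leave the aligner, counter, annotation and model formula unstated. Per the file headers, the authors' deposited table holds a mean abundance (a signal in normalized counts), the log2 fold change with its SE in log2 units, the Wald score, p-values and adjusted p-values, and another column with the call the authors made (Up, Down or Stable). Its direction, knockout over control, is that of the table's name. The lowest mean abundance listed was 8.35. The score equalled fold over SE to within 2.58e-07, and adjusted p-values matched a Benjamini-Hochberg adjustment to within 0.512 percent.

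With no values per library, no test was refitted: the DESeq2 tests are the authors', adjusted over all 16701 genes. Intervals are 1.96 SE on either side, and percentages of control are powers of 2 of the log2 values. Lengths are of the longest transcript in GENCODE vM21 (GRCm38, the assembly of mm10), matched by symbol for 40 of 40 members. Other settings were an adjusted p under 0.01 or 0.1, a log2 fold change of 1 or more in size, a mean abundance of at least 50, scores scaled down by the root of an inflation factor of 1.18, scores less their median in 20 bins of length, centring on all genes, and the authors' own call. The corrections were tested on simulated data. Python 3.11.15, pandas 2.3.3 and scipy 1.17.1 were used. Named are members with an unadjusted p under 0.05, those with the highest mean abundance in each role and their partners, with the rest given by role. Some genes enter the counts but are not reported here by name. Members, lists and tests were chosen with earlier results of these data known.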

Additional observations from a re-analysis of the deposited data

How the results depend on the processing

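No paired analysis was possible because no values per library were used here, and for the same reason replicates could not be left out and no other normalization was run. The call of 1 higher member, Itgb8, was lost, leaving 0, at an adjusted p under 0.01, when the fold also had to reach 1 on the log2 scale, with the scores scaled down for inflation and with the length trend removed. At an adjusted p under 0.1 the count was 2, with Itga2 added. The authors' own call also gave 1 member, but this was Itgb2. The adjusted p of Itgb8 ranged from 0.0409 to 0.141 and that of Itga2 from 0.0522 to 0.164 over the settings. The count of members called lower was 0 by DESeq2 under all of these settings. At an unadjusted p under 0.05, the 2 lower members became 1 with a mean abundance of at least 50, since Itga7 lay below that level, and 4 with the length trend removed, when Itga3 and Itgav joined Lamb1 and Itga7, while the 4 higher members became 3. The median log2 fold change of the members was 0.13 and ranged from 0.02 with the length trend removed to 0.13 after centring on all genes. Leaving out Itgbl1 gave no value of its own because that gene is not among the listed members. The members include 9 with a mean abundance under 50, for which log2 changes under 1.2 in size could not pass.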
